A study of Mus musculus with 8 samples.

Results

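The 8 genes described here are the apelin peptide gene Apln, its receptor gene Aplnr, the endocan gene Esm1 and 5 more genes linked to sprouting endothelium, Cd93, Clec14a, Pgf, Ism1 and Trp53i11. They were taken by symbol from a table of 35852 genes, and each symbol matched 1 gene identifier. The set was selected on the gene-level counts of these same libraries, compared between the groups, so the levels and fold changes of the 8 genes are given as a description, without a test. The cells are bEnd3, a mouse brain endothelial line immortalised with the polyoma virus middle T antigen, and their mRNA was captured on poly(A) and sequenced with the strand kept. A first group of 4 samples had been exposed to 5 µM corticosterone, a glucocorticoid hormone, over 24 h. The other 4 samples had culture medium. The treatment protocol text names corticosterone for every sample, the titles and the treatment field separate the groups, and no vehicle is named for the medium samples. The labels do not say whether replicates were separate cultures, so every spread and p-value below measures the difference between these samples, which may be technical.

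When a vessel sprouts, a leading tip cell migrates towards growth factor and the stalk cells behind it proliferate and form the tube. Tip cells are known for high expression of Apln and Esm1, and stalk cells carry the apelin receptor, a G protein-coupled receptor. Endocan, the Esm1 product, is a secreted dermatan sulfate proteoglycan. Cd93 and Clec14a encode related transmembrane C-type lectin-like proteins that bind the matrix protein multimerin-2, and Pgf encodes placental growth factor, which acts through the VEGF receptor encoded by Flt1. Ism1 encodes the secreted protein isthmin, and Trp53i11 encodes a membrane protein first found as a p53-induced transcript and later listed among tip-cell transcripts.

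The 300 bases around the annotated starts of 4 of the genes are shown because these genes moved in different directions: Apln and Esm1 stood far lower with corticosterone, Clec14a slightly lower and Pgf higher. The sequences are from RefSeq on GRCm38.p6, run 5′ to 3′ on the strand of the gene, and hold 250 bases before and 50 from the start site. RefSeq windows were at hand for 5 of the 8 genes; Aplnr, Cd93 and Ism1 had none. Capitals mark matches, on either strand, to 7 motifs: the glucocorticoid response element (GNACA and TGTNC with 3 bases between them), the half-site AGAACA, the hypoxia response core ACGTG, the AP-1 site TGANTCA, the TATA box TATAAA, the CCAAT box and the GC box GGGCGG. No matches overlap in the windows shown.
Apln, chrX:48034804-48035103, minus strand: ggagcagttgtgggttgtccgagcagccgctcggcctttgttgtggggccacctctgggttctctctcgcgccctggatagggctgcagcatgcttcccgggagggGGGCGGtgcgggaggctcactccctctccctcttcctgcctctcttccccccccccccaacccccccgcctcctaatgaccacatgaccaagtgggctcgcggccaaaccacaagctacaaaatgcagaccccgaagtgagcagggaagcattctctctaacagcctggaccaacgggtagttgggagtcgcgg
Esm1, chr13:113209409-113209708, plus strand: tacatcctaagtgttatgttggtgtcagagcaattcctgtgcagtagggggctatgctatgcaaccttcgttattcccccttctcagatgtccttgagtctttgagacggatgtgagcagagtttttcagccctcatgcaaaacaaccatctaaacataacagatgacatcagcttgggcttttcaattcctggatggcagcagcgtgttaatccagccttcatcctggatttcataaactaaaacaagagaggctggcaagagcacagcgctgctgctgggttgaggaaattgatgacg
Clec14a, chr12:58269209-58269508, minus strand: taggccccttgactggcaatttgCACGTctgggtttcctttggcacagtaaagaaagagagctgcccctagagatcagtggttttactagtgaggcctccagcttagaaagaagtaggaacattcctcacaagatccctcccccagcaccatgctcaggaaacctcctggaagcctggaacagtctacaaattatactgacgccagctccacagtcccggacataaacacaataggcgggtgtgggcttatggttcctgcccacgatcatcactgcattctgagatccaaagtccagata
Pgf, chr12:85177264-85177563, minus strand: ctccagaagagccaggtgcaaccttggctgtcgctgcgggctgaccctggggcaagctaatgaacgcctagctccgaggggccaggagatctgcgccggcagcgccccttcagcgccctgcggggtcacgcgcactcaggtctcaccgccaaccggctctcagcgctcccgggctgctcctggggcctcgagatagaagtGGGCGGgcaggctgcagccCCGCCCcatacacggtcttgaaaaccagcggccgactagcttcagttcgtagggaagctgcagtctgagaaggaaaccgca

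The Apln window held 1 GC box, whose first base lies at -144 from the start site, and the Pgf window shown held 2, at -50 and -31. Another RefSeq window of Pgf (chr12:85175933-85176232, minus strand), not printed, held no match. The Clec14a window held 1 hypoxia response core at -227, read on the opposite strand, and the Esm1 window held no match. The Trp53i11 window (chr2:93187298-93187597, plus strand), not printed, held 1 GC box at -57 and 1 CCAAT box at 1. None of the 5 genes' windows held the full glucocorticoid response element, its half-site, the AP-1 site or the TATA box in these letters. Of 32851 RefSeq windows of this length, 0.475% held the full glucocorticoid element, 19.0% its half-site, 7.81% the AP-1 site and 13.6% the TATA box, while 35.7% held a GC box, 19.6% the hypoxia core and 37.4% a CCAAT box. The windows shown were 64.0% (Apln), 46.3% (Esm1), 50.3% (Clec14a) and 66.0% (Pgf) G or C, against a median of 52.7% over all windows. A match or its absence describes the letters of these windows and nothing further upstream or inside the genes.

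The corticosterone libraries held 27699224 to 33193008 estimated counts and the medium libraries 19746273 to 46206883. In corticosterone replicates 1 and 2 the deposited effective lengths equal the transcript length plus 1 for 100% of transcripts of 1000 nt or more, and in the other 6 libraries for 0% of them, so values are also given without those 2 libraries where it matters. Of 13272 genes tested with edgeR, 5327 (40.1%) were called at an adjusted p under 0.05, 2590 higher and 2737 lower with corticosterone. A fit that changed both the scaling and the model, limma on log2(TPM + 0.5) with 1 effective length per transcript, called 1194 genes, 380 of them higher, and its median over all genes was -0.17 on the log2 scale. Endothelial markers were abundant in both groups: Cdh5 averaged 1985 and 1867 CPM, and Pecam1 1575 and 1673 CPM, with corticosterone and in medium (CPM is the count relative to the TMM-scaled library total). Of 17 endothelial markers, 6 were called higher and 7 lower. Leukocyte markers summed to 19.2 to 22.1 CPM with corticosterone and 20.2 to 22.1 CPM in medium, and neural and glial markers to 2.18 to 2.82 and 1.69 to 2.37 CPM. Fibroblast markers summed to 9.53 to 10.1 CPM with corticosterone and 24.0 to 26.0 CPM in medium. Most of that gap lay in Pdgfra, at 4.87 ± 0.12 and 18.4 ± 1.00 CPM (SD, n = 4). The fibroblast markers Pi16 and Mfap5 ran the other way. Pi16 had 1.63 ± 0.624 and 1.11 ± 0.230 CPM (SD, n = 4), with overlap, and Mfap5 had 15 and 5 counts. The fibroblast markers Lum and Dpt had under 3 counts in all 8 libraries together. Pericyte and smooth muscle markers summed to 8.68 to 10.9 and 11.2 to 12.5 CPM, with Kcnj8, Des and Vtn under 3 counts. Within that list Myh11 ran the other way, at 0.518 ± 0.162 and 0.223 ± 0.031 CPM (SD, n = 4). The sums of these 2 lists were lower beside Apln, Esm1 and Ism1; their part in those values was not tested. In bulk RNA, fewer cells of a type and less RNA per cell cannot be told apart, so no value here counts tip cells.

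The 7 genes other than Aplnr passed the filter on low counts, and 2 of them were called higher and 5 lower, where 19.5% of all tested genes were called higher and 20.6% lower. The CPM of Apln, Esm1, Ism1, Cd93 and Pgf did not overlap between the groups, as for 39.9% of all tested genes. Because this contrast chose the genes, nothing is read from these counts. Of the 8 genes, 4 lie on chromosome 2 (Aplnr, Trp53i11, Ism1 and Cd93) and 2 on chromosome 12 (Clec14a and Pgf).

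**Figure D1:**
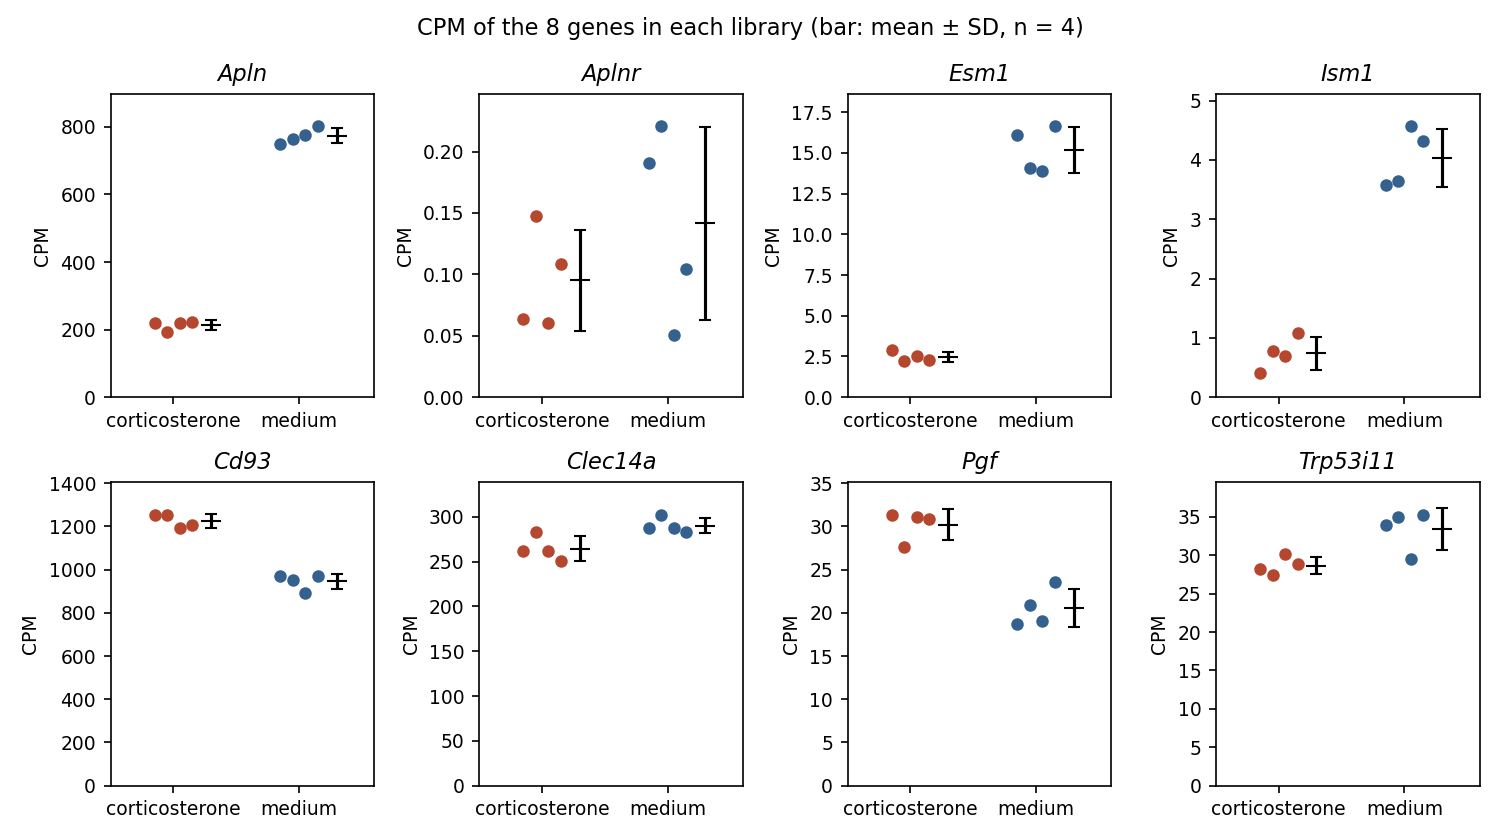
CPM of each gene in the 4 corticosterone libraries (left, red) and the 4 medium libraries (right, blue), each panel on its own linear axis from 0, with the mean and SD beside the points. Apln, Esm1 and Ism1 stood lower with corticosterone and Cd93 and Pgf higher, each without overlap, while Clec14a and Trp53i11 overlapped and Aplnr reached at most 0.221 CPM in any of the 8 libraries.

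Apln (ENSMUSG00000037010.7, chromosome X, 48025146 to 48034853 on GRCm38, minus strand) is a protein-coding gene with 1 annotated transcript, and it overlaps no other gene. It had 219.6, 192.4, 220.4 and 223.9 CPM in corticosterone replicates 1 to 4, against 749.3, 765.2, 777.1 and 802.5 CPM in medium replicates 1 to 4. Every corticosterone library stood far below every medium library, and corticosterone replicate 2 was the lowest. The means were 214 ± 14.6 CPM with corticosterone and 773.5 ± 22.4 CPM in medium (SD, n = 4), a ratio of 0.277 and a log2 fold change of -1.85 ± 0.05 (SE). Among the 6757 tested genes with a negative log2 fold change, Apln ranked 33rd by size. The counts behind these values were 5209 to 7265 per corticosterone library and 15466 to 35353 per medium library. Counting error alone would give a coefficient of variation of 1.25% and 0.65%, against 6.81% and 2.90% observed. Without corticosterone replicates 1 and 2 the log2 fold change was -1.80.

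Aplnr (ENSMUSG00000044338.9, chromosome 2, 85136225 to 85139923), the receptor of apelin, was close to the limit of detection. It had 2, 4, 2 and 3 counts in the corticosterone libraries and 9, 6, 1 and 3 counts in the medium libraries. The groups overlapped, and the gene did not pass the filter on low counts. The 11 and 19 counts give a ratio of 0.597 after scaling by library size, with a 95% exact binomial interval of 0.257 to 1.32 that covers counting error only. The interval includes 1, so no difference in Aplnr between the groups was detected at this depth. Differences within the interval remain possible. Apela, the gene of the second peptide ligand of the receptor, had 0 counts with corticosterone and 1 in medium.

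Other genes of the apelin system were taken from a list of processing enzymes, peptidases, G protein subunits, arrestins and vascular targets. Of 19 such genes 16 were tested, of which 10 rose, 4 fell (Gnaq, Arrb1, Arrb2 and Grk2) and 2 (Mme and Pcsk7) did not pass, with a median log2 fold change of 0.23 against -0.0046 over all tested genes. The shares called over all tested genes were 19.5% higher and 20.6% lower. Among all genes with a mean of 10 CPM or more, 47.8% were called in either direction. Ace, the angiotensin-converting enzyme gene, had 682.2, 681.9, 654.4 and 633.7 CPM with corticosterone, against 87.2, 92.9, 87.9 and 94.5 CPM in medium. It rose 7.32-fold (log2 fold change 2.87 ± 0.04, SE; edgeR adjusted p = 6.33e-14), with no overlap between the groups. Furin, a convertase that cleaves the apelin precursor, rose 1.53-fold, at 394 ± 9.93 and 257 ± 4.21 CPM (SD, n = 4; edgeR adjusted p = 1.21e-09). Mef2c, a transcription factor that acts downstream of the apelin receptor, rose 1.36-fold (edgeR adjusted p = 1.08e-08). Across the system the peptide gene was thus far more abundant than its receptor gene, which averaged 0.095 ± 0.041 CPM with corticosterone and 0.142 ± 0.078 CPM in medium (SD, n = 4).

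Esm1 (ENSMUSG00000042379.8, chromosome 13, 113209659 to 113218098, plus strand) has 1 annotated transcript and lies opposite the granzyme gene Gzmk, with no overlap of exons. It had 2.91, 2.22, 2.52 and 2.31 CPM in the corticosterone libraries, against 16.1, 14.1, 13.9 and 16.7 CPM in the medium libraries. The highest corticosterone library stood well below the lowest medium library. The means were 2.49 ± 0.31 and 15.2 ± 1.41 CPM (SD, n = 4), a ratio of 0.164 and a log2 fold change of -2.61 ± 0.10 (SE), the 7th largest by size among genes with a negative value. With 60 to 92 counts per corticosterone library, its variation of 12.4% there was close to the 11.6% that counting alone gives. Without corticosterone replicates 1 and 2 the log2 fold change was -2.65. Of its 31-mers (stretches of 31 nt) 99.3% are found in no other gene.

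Ism1 (ENSMUSG00000074766.10, chromosome 2, 139678178 to 139758581, plus strand) was the least abundant of the 7 genes that passed the filter. It had 0.412, 0.776, 0.698 and 1.08 CPM with corticosterone, against 3.58, 3.64, 4.57 and 4.32 CPM in medium. The groups did not overlap, and the corticosterone libraries differed among themselves more than the medium libraries did, with coefficients of variation of 37.2% and 12.2%. The corticosterone values rest on 13, 21, 23 and 30 counts, for which counting alone gives 21.4%. The means were 0.742 ± 0.276 and 4.03 ± 0.493 CPM (SD, n = 4), a ratio of 0.184 and a log2 fold change of -2.44 ± 0.24 (SE). Across the alternatives the log2 fold change of Ism1 lay between -2.67 and -1.64, a wider range than for Apln (-2.11 to -1.80) or Esm1 (-2.79 to -2.53). The value of -1.64 is from limma on log2(TPM + 0.5). There Ism1 averaged 0.330 TPM with corticosterone, below the added 0.5.

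The estimated counts of Ism1 changed transcript between libraries. The gene has 2 annotated transcripts of 2964 and 2944 nt, which have 51 and 31 31-mers of their own. In corticosterone replicates 1 and 3 practically all counts were assigned to the shorter transcript, 13 and 23 counts. In corticosterone replicates 2 and 4 all 21 and 30 counts went to the longer one, as did at least 99.77% of the counts in each medium library. The gene-level counts add both transcripts and do not depend on this assignment, and with 13 counts in a library the shares were not tested.

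The list named isthmin partners was short. It also held the insulin receptor gene Insr and the isthmin relative Ism2, so its counts do not describe binding partners alone. Of 6 listed genes 5 were tested, and 3 rose (Itgb3, Insr and Hspa5) while 2 fell (Itgav and Itgb5). Beside them, 19.5% of all tested genes were called higher and 20.6% lower. The integrin of the Itgav and Itgb5 products is a receptor of isthmin: Itgav stood at 0.940 and Itgb5 at 0.799 of medium (edgeR adjusted p = 0.00945 and 0.00312). The call of Itgav ended without corticosterone replicates 1 and 2 (edgeR adjusted p = 0.0737). Itgb3, which pairs with the same alpha subunit, had 971 to 1003 CPM with corticosterone and 281.4 to 297.2 CPM in medium, 3.40-fold higher (log2 fold change 1.76 ± 0.02, SE; edgeR adjusted p = 7.5e-14). Hspa5, a chaperone that also binds isthmin at the cell surface, rose 1.22-fold, at 1110 ± 39.7 and 913 ± 27.2 CPM (SD, n = 4; edgeR adjusted p = 8.98e-06).

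Cd93 (ENSMUSG00000027435.8, chromosome 2, 148436640 to 148443563, minus strand) was higher with corticosterone. It had 1255, 1251, 1191 and 1207 CPM with corticosterone, against 968.5, 953.1, 894.0 and 969.6 CPM in medium. The groups did not overlap. The means were 1226 ± 31.9 and 946 ± 35.7 CPM (SD, n = 4), a ratio of 1.30 and a log2 fold change of 0.37 ± 0.03 (SE), and 0.34 without corticosterone replicates 1 and 2. In the limma fit on TPM it was only 0.12, where the median of all genes was -0.17. The TPM of 173.5 to 248.7 with corticosterone and 185.6 to 210.2 in medium overlapped. Corticosterone replicates 1 and 2, whose median gene lay at a log2 of -0.31 and -0.45 from the medium mean, had 210.2 and 173.5 TPM. Cd93 had 245.2 and 248.7 TPM in corticosterone replicates 3 and 4. With 17792 to 45697 counts per library its precision was set by the libraries, not by counting.

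Clec14a (ENSMUSG00000045930.3, chromosome 12, 58264720 to 58269290, minus strand), a gene with 1 exon from the same lectin group, went the other way by a small amount. It had 262.4, 283.6, 261.9 and 250.5 CPM with corticosterone, against 287.6, 302.6, 287.2 and 282.9 CPM in medium. Corticosterone replicate 2 lay just above the lowest medium library, so the groups overlapped slightly. The means were 265 ± 13.8 and 290.1 ± 8.62 CPM (SD, n = 4), a ratio of 0.912 and a log2 fold change of -0.13 ± 0.04 (SE). For Clec14a the limma fit on TPM gave -0.39, beside a median of -0.17 over all genes. The within-library ratio of Clec14a to Cd93, per length, was 0.324 ± 0.014 with corticosterone and 0.46 ± 0.022 in medium (SD, n = 4), with no overlap between 0.311 to 0.340 and 0.437 to 0.482.

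The list around the lectin group held 11 other genes, of which 10 were tested. Beside relatives and ligands it held the integrin subunit gene Itgb1 and genes of cytoplasmic proteins (Msn, Crk, Cbl and Gipc1). Of those tested, 4 rose (Thbd, Igfbp7, Msn and Crk), 3 fell (Cd248, Mmrn2 and Dag1) and 3 (Itgb1, Cbl and Gipc1) did not pass. The list had a median log2 fold change of 0.042, where 19.5% of all tested genes were called higher and 20.6% lower. Thbd, the thrombomodulin gene of the same group, had 609.4, 590.8, 603.4 and 594.8 CPM with corticosterone, against 332.7, 342.9, 333.5 and 366.0 CPM in medium, a rise of 1.74-fold (edgeR adjusted p = 7.46e-10). Cd248, the endosialin gene of the same group and a gene best known from pericytes and fibroblasts, fell to 0.378 of medium, at 0.592 ± 0.157 and 1.56 ± 0.251 CPM (SD, n = 4; edgeR adjusted p = 0.000351). Mmrn2, the shared ligand, fell to 0.838 of medium (edgeR adjusted p = 0.0143), and its call ended with a replicate block (edgeR adjusted p = 0.0618). Igfbp7, a second ligand of the Cd93 product, rose 1.43-fold, at 14.99 ± 1.604 and 10.5 ± 0.247 CPM (SD, n = 4; edgeR adjusted p = 9.16e-05).

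Pgf (ENSMUSG00000004791.7, chromosome 12, 85166635 to 85177790, minus strand) was the other gene that stood higher. It had 31.4, 27.6, 31.1 and 30.8 CPM with corticosterone, against 18.7, 20.9, 19.1 and 23.5 CPM in medium. The lowest corticosterone library, replicate 2, was above the highest medium library. The means were 30.2 ± 1.78 and 20.6 ± 2.22 CPM (SD, n = 4), a ratio of 1.47 and a log2 fold change of 0.56 ± 0.07 (SE), and 0.60 without corticosterone replicates 1 and 2. In the limma fit on TPM it was 0.28, where the median of all genes was -0.17. The TPM of 20.6 to 35.4 with corticosterone and 22.3 to 27.6 in medium overlapped through corticosterone replicate 2 alone. The median gene of that library lay at a log2 of -0.45 from the medium mean. Pgf had 29.3 to 35.4 TPM in the other corticosterone libraries. One transcript of 1582 nt, whose start lies in the promoter window shown, held 92.7 ± 0.825% of the gene's counts with corticosterone and 92.3 ± 2.34% in medium (SD, n = 4), so the gene-level values are nearly those of this transcript.

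The list around placental growth factor and the VEGF family held 13 other genes, all tested. Beside ligands and receptors it held the plexin gene Plxnd1 and the transcription factor genes Mtf1, Epas1 and Hif1a. Of the 13 genes, 5 rose (Flt1, Flt4, Plxnd1, Mtf1 and Epas1) and 5 fell (Vegfb, Vegfc, Kdr, Nrp1 and Nrp2). The other 3 (Vegfa, Vegfd and Hif1a) did not pass, and the list had a median log2 fold change of -0.02. Over all tested genes, 19.5% were called higher and 20.6% lower. Flt1, the receptor gene for placental growth factor, rose 1.10-fold, at 394 ± 8.88 and 358 ± 7.55 CPM (SD, n = 4; edgeR adjusted p = 0.000767). Kdr, the main signalling receptor gene for VEGF-A, fell to 0.913 (edgeR adjusted p = 0.0017), and the neuropilin genes Nrp1 and Nrp2 fell to 0.842 and 0.694 of medium (edgeR adjusted p = 0.000989 and 2.62e-08). Vegfa itself had 11.2 ± 1.02 and 10.5 ± 0.612 CPM (edgeR adjusted p = 0.428).

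Trp53i11 (ENSMUSG00000068735.14, chromosome 2, 93187548 to 93201759, plus strand) had 28.2, 27.5, 30.1 and 28.8 CPM with corticosterone, against 34.0, 34.9, 29.5 and 35.3 CPM in medium. Medium replicate 3 lay among the corticosterone libraries, and the other 3 medium libraries lay above them. The means were 28.7 ± 1.10 and 33.4 ± 2.68 CPM (SD, n = 4), a ratio of 0.857 and a log2 fold change of -0.22 ± 0.06 (SE). For Trp53i11 the limma fit on TPM gave -0.49, beside a median of -0.17 over all genes. Its leading transcript, of 2654 nt, held 80.4%, 80.5%, 64.0% and 74.2% of the gene's counts with corticosterone, against 68.7%, 68.7%, 54.8% and 78.8% in medium. Both groups spread widely and overlapped. The difference of 7.04 percentage points did not pass (two-sided exact permutation test, p = 0.314, 1 gene tested, where 0.0286 is the smallest p for 4 against 4). The difference was 1.35 points without corticosterone replicates 1 and 2 (exact permutation p = 0.933). With 2 libraries against 4 that test cannot reach a p under 0.05, so it decides nothing.

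Of 19 other genes listed as p53 targets 17 were tested, 5 rose (Cdkn1a, Ccng1, Sesn1, Fas and Btg2), 8 fell and 4 did not pass, with a median log2 fold change of -0.036, against 19.5% of all tested genes called higher and 20.6% lower. Fas, a death receptor gene, rose 4.13-fold, at 36.0 ± 1.23 and 8.74 ± 0.777 CPM (SD, n = 4; edgeR adjusted p = 8.58e-11), and Sesn1, a stress-response gene, 1.94-fold (edgeR adjusted p = 9.51e-09). Bbc3, which encodes the death-promoting protein PUMA, fell to 0.729 (edgeR adjusted p = 2.51e-07), and Mdm2, the ubiquitin ligase gene for p53, to 0.945 of medium (edgeR adjusted p = 0.0111).

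Per length, the order of the 8 genes differed between the groups in 1 place. Levels are given as CPM per kb of effective length, in each case the corticosterone value before the medium value. With corticosterone Cd93 led at 194 ± 5.05, ahead of Apln at 76.5 ± 5.21, Clec14a at 62.7 ± 3.28, Pgf at 26.3 ± 1.92, Trp53i11 at 15.2 ± 1.10, Esm1 at 1.43 ± 0.177, Ism1 at 0.285 ± 0.105 and Aplnr at 0.028 ± 0.012 (SD, n = 4). In medium Apln led at 276.5 ± 8.02, ahead of Cd93 at 149.6 ± 5.64, Clec14a at 68.7 ± 2.04, Pgf at 18.1 ± 1.90, Trp53i11 at 17.99 ± 1.53, Esm1 at 8.70 ± 0.810, Ism1 at 1.54 ± 0.189 and Aplnr at 0.042 ± 0.023 (SD, n = 4). Only the neighbours Pgf and Trp53i11 in medium lay within their spread; every other pair of neighbours was apart in all 4 libraries of its group. By this level Apln stood above 85.5% of tested genes with corticosterone and above 97.1% in medium, and Esm1 above 14.7% and 38.3%.

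**Figure D2:**
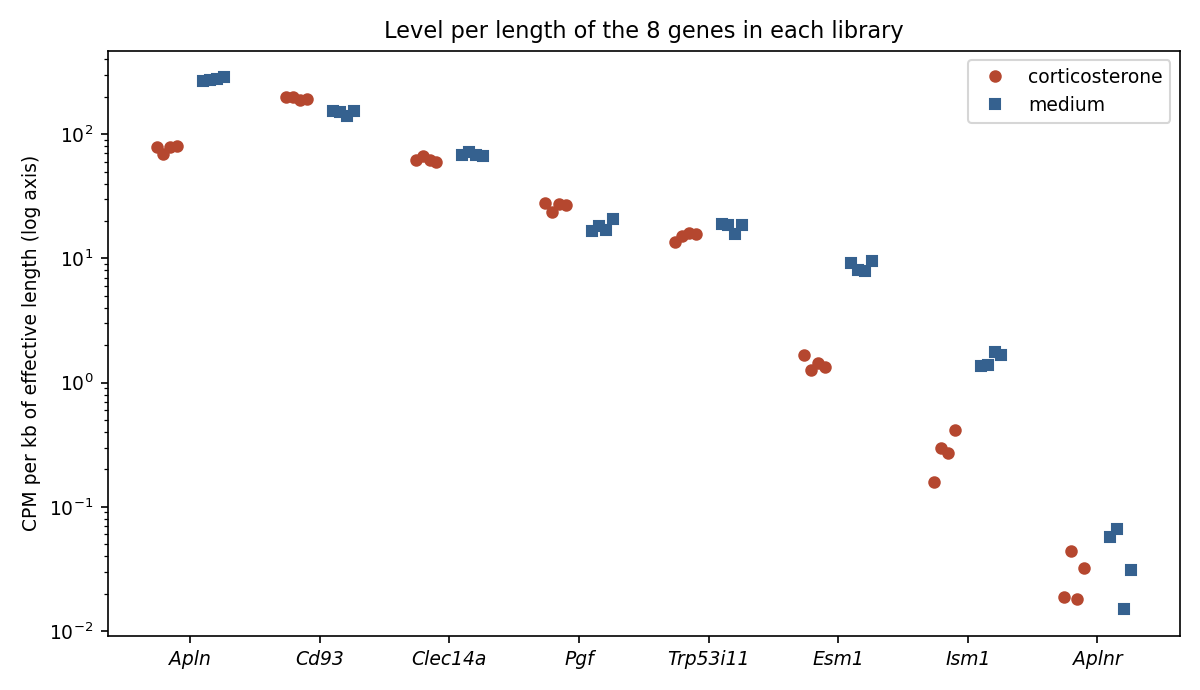
Level per length (CPM per kb of effective length, log axis) of the 8 genes in each library, corticosterone as red circles on the left of each pair and medium as blue squares on the right, genes ordered by their medium mean. Apln lies above Cd93 in the 4 medium libraries and below it in the 4 corticosterone libraries.

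Ratios taken inside 1 library do not depend on how libraries are scaled. The ratio of Apln to Cd93, per length, was 0.396, 0.348, 0.418 and 0.419 in the corticosterone libraries, against 1.75, 1.82, 1.97 and 1.87 in the medium libraries. Apln was thus the less abundant of the pair in every corticosterone library and the more abundant in every medium library. The ratio of Esm1 to Pgf was 0.054 ± 0.0046 with corticosterone and 0.483 ± 0.052 in medium (SD, n = 4).

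The list of tip-cell genes holds 34 further genes, of which 31 were tested. Of these, 17 rose, 9 fell and 5 did not pass, with a median log2 fold change of 0.24 against -0.0046 over all tested genes. The shares over all tested genes were 19.5% higher and 20.6% lower, and 47.8% in either direction among genes with a mean of 10 CPM or more. Angpt2, the angiopoietin-2 gene and a marker of sprouting and destabilised vessels, had 2.85, 2.73, 3.13 and 2.53 CPM with corticosterone, against 12.1, 12.6, 13.9 and 14.0 CPM in medium. It fell to 0.214 of medium (log2 fold change -2.22 ± 0.09, SE; edgeR adjusted p = 8.63e-10), with no overlap. Inhbb, which encodes a subunit of activin, fell to 0.282 of medium, at 23.5 ± 0.86 and 83.3 ± 3.69 CPM (SD, n = 4; edgeR adjusted p = 4.28e-12). The other 7 falls (Kdr, Unc5b, Cd34, Lama4, Nrp1, Plaur and Fscn1) were smaller; Unc5b, a netrin receptor gene, stood at 0.781 (edgeR adjusted p = 6.99e-06).

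In the opposite direction, Igfbp3, a binding protein of insulin-like growth factors, had 512.0, 527.1, 549.1 and 551.4 CPM with corticosterone, against 112.5, 122.9, 108.5 and 124.2 CPM in medium. It rose 4.57-fold (log2 fold change 2.19 ± 0.05, SE; edgeR adjusted p = 6.19e-11). Ramp3, a subunit of adrenomedullin receptors, rose 2.40-fold, at 139 ± 1.53 and 58.0 ± 1.14 CPM (SD, n = 4; edgeR adjusted p = 1.52e-12). Dll4, the Notch ligand gene of tip cells, had 159.9 ± 3.01 and 154 ± 4.22 CPM (edgeR adjusted p = 0.144). Pdgfb had 105 ± 5.48 and 109 ± 4.12 CPM (edgeR adjusted p = 0.264), and Adm, the adrenomedullin gene, 4.68 ± 0.301 and 5.26 ± 0.369 CPM (edgeR adjusted p = 0.178). Cxcr4, a chemokine receptor gene of tip cells, had 2 counts with corticosterone and 6 in medium and was not tested.

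**Figure D3:**
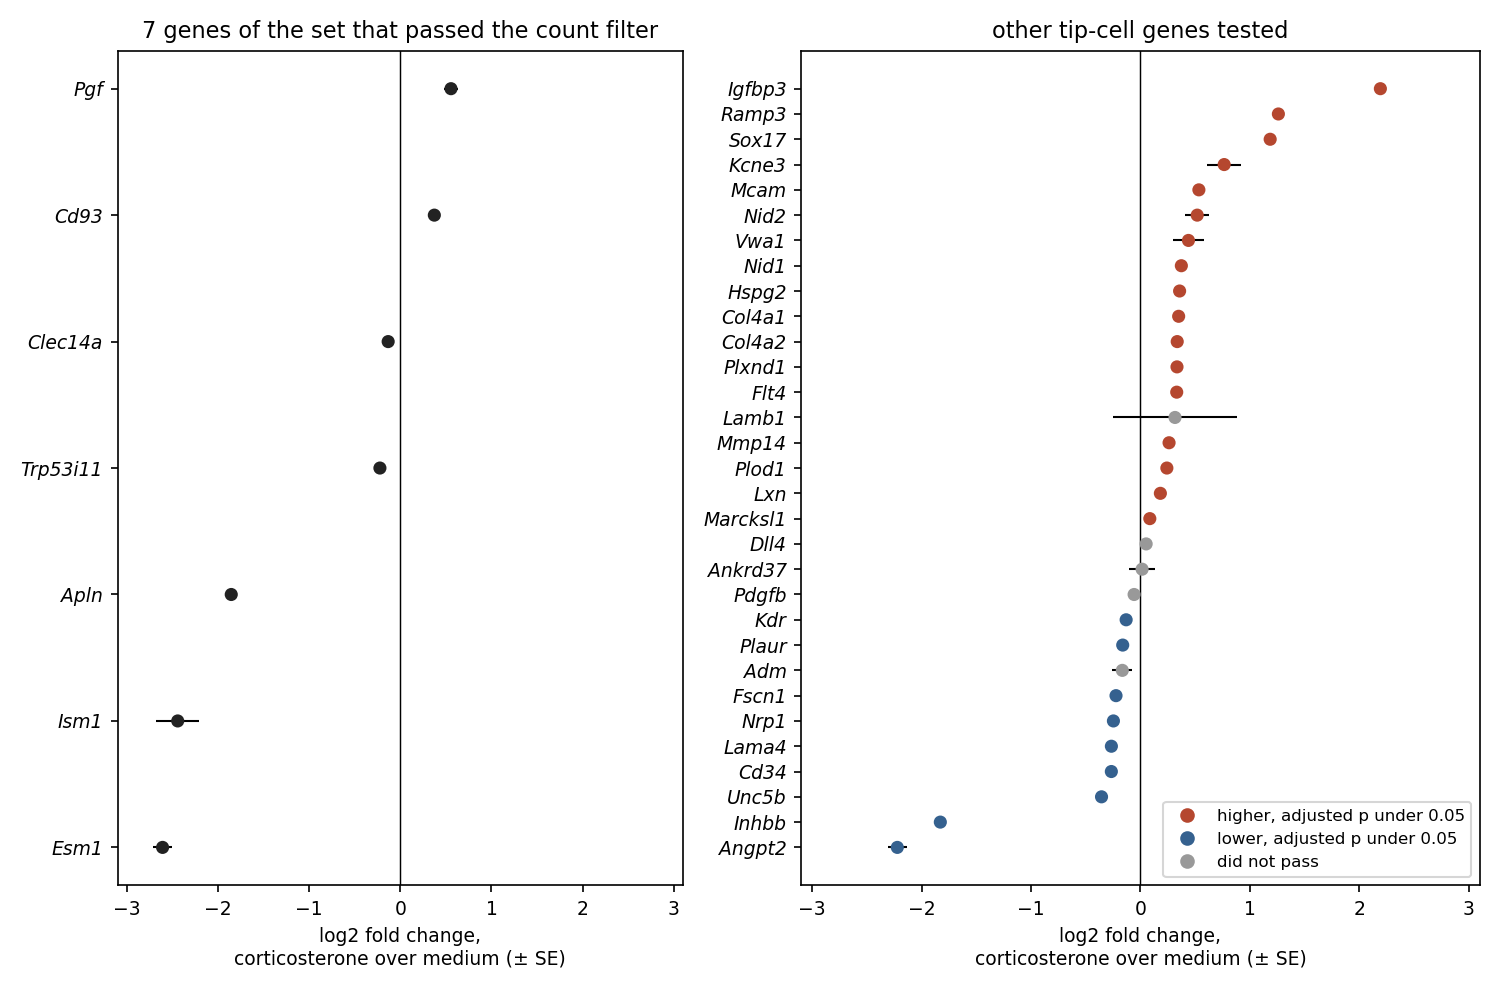
Log2 fold change of corticosterone over medium with its SE, for the 7 genes that passed the filter on low counts (left, dark points, described without a test) and the 31 other tip-cell genes tested (right), where red marks genes called higher, blue genes called lower and grey genes that did not pass. Apln, Esm1 and Ism1 lie between -2.61 and -1.85, beside Angpt2 at -2.22 and Inhbb at -1.83 on the right, while Igfbp3 lies at 2.19.

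Genes known from stalk and quiescent (phalanx) endothelium numbered 23 beside Aplnr, of which 21 were tested, with 10 rises, 6 falls and a median log2 fold change of 0.029, beside the same shares of 19.5% and 20.6% over all tested genes. Jag2, a Notch ligand gene, rose 2.41-fold, at 150.1 ± 4.31 and 62.1 ± 4.85 CPM (SD, n = 4; edgeR adjusted p = 2.12e-08), and the receptor gene Notch4 1.74-fold, at 727 ± 11.1 and 419 ± 5.81 CPM (edgeR adjusted p = 3.3e-11). Vwf, the von Willebrand factor gene, fell to 0.421 of medium, at 113 ± 10.01 and 267 ± 31.5 CPM, and Id2, a target gene of BMP signalling, to 0.527 (edgeR adjusted p = 8.97e-05 and 1.45e-05). Of 26 listed transcription factors of sprouting endothelium 24 were tested, and 10 rose and 10 fell, where all tested genes were themselves split into 19.5% higher and 20.6% lower. Sox7, an endothelial SOX factor gene, fell to 0.549, and Foxo1, a factor that restrains endothelial growth, to 0.647 of medium (edgeR adjusted p = 6.41e-11 and 1.78e-09), while Mef2a rose 1.38-fold (edgeR adjusted p = 1.43e-08). The glucocorticoid-induced gene Fkbp5 rose 6.83-fold in the same libraries (edgeR adjusted p = 6.33e-14), and the receptor gene Nr3c1 stood at 0.792 of medium (edgeR adjusted p = 3.65e-06).

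**Figure D4:**
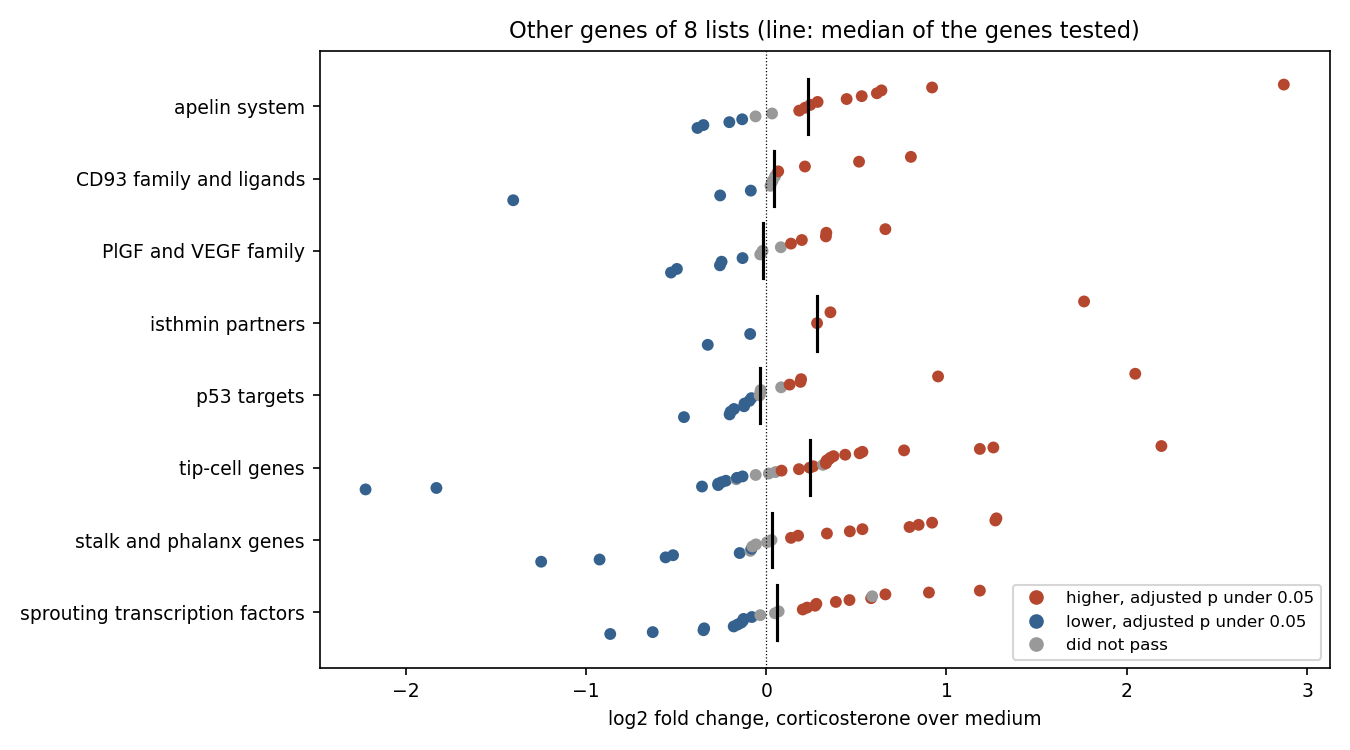
Log2 fold change of corticosterone over medium for the genes tested in 8 lists, without the 8 genes of the set, 1 point a gene, red where called higher, blue where called lower and grey where the gene did not pass, with a line at the median of each list. The medians lie between -0.036 for p53 targets and 0.28 for isthmin partners, and most lists hold genes on both sides of 0.

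The genes whose values ran most closely with each of the 7 were found by the Euclidean distance, over the 8 libraries, between log2 CPM profiles set to a medium mean of 0, among 11171 genes. For Apln they were Ctnnal1, a catenin relative, Inhbb, and Slit2, a guidance cue gene, at distances of 0.204, 0.210 and 0.302. Their ratios of corticosterone to medium were 0.284, 0.282 and 0.298. For Esm1 they included Lgr6, a receptor gene for R-spondins, and Papln, a matrix protein gene, at 0.638 and 0.762, with ratios of 0.168 and 0.192. For Ism1 they were Papln, Chp2 and Ak5 at 0.643, 0.782 and 0.821. Ism1 and Esm1 were 1.26 apart, and Apln was 0.98 from Ism1 and 1.33 from Esm1. For Cd93 the nearest were Eif2ak3, Tmem192 and Phtf2 at 0.032 to 0.069, for Pgf Psen2, Nr4a2 and Il18rap at 0.155 to 0.231, for Clec14a Tbc1d8b, Cntln and Arfgap3 at 0.068 to 0.072, and for Trp53i11 Pkdcc, E2f4 and Smim14 at 0.059 to 0.119. The libraries share a treatment contrast, so a small distance mostly states a like fold change.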

How the data were processed

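RNA was measured in 8 libraries of bEnd3 cells, 4 per group, grouped by title. The submitters' processing notes name bcl2fastq, kallisto 0.46.1, mm10 and GRCm38; neither the kallisto index nor how genes were summed from transcripts is stated there. The authors deposited expected (estimated) counts per gene and, per library, estimated counts, TPM and effective lengths per transcript. Per the file headers, the tables have kallisto's columns, whose TPM values scale counts by effective length. The lengths (nt) are the authors' deposited values. Symbols and positions are from GENCODE M21 (GRCm38) and matched 99.8% of gene identifiers.

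Estimated counts were rounded, filtered with filterByExpr, and scaled by TMM. The model was edgeR 4.0.16 under R 4.3.3 (quasi-likelihood F test, robust, group as the single term; Benjamini-Hochberg over 13272 genes, threshold 0.05). The SE is the log2 fold change over the square root of F. On simulated counts for 13272 genes the fit recovered 66 of 66 genes changed by a log2 of 2, 55 of 66 at 1 and 35 of 65 at 0.5, with 9 false calls. Far fewer genes were changed there than the 5327 called in the data. The simulation therefore gives no error rate for the data themselves. Levels per length used 1 effective length per transcript, the median of 6 libraries; CPM per kb was chosen after seeing that TPM of corticosterone replicates 1 and 2 were off scale. DESeq2 1.42.0 and limma 3.58.1 served as alternatives.

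The 8 genes and the 13 lists (230 entries) were chosen with earlier results of these data known. Beside the 8 genes, the rule for named genes took 3 nearest genes for each of the 7 tested, the 3 called genes with the smallest p of each list, and fixed names, 71 in all, of which 2 are not reported here; list members outside it were named after their values were seen. Of the markers of other cell types, Tubb3 was called higher, and Pdgfrb, Acta2, Pdgfra, Col1a1 and Fbln1 were called lower, by edgeR.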

Additional observations from a re-analysis of the deposited data

Results flagged for a closer look

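In 9 of 166 groups of 4 libraries, 1 library lay far from the other 3 (by Dixon's ratio of gap to range), where chance alone flags about 1 in 20 groups. Corticosterone replicate 2 was the low library for both genes of the set that appear here: Apln had 192.4 CPM there and 219.6 to 223.9 in the other 3 corticosterone libraries, and Pgf had 27.56 CPM there and 30.85 to 31.37 in the others. That library stayed far below every medium library for Apln and above every medium library for Pgf.

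Hspa5 had a low library in each group, 1051 CPM in corticosterone replicate 3 (1125 to 1138 in the others) and 872.3 CPM in medium replicate 1 (923.7 to 931.5 in the others). Jag2 had 143.6 CPM in corticosterone replicate 4 and 151.9 to 152.6 in the other corticosterone libraries, and Papln was high in the same library, at 2.637 CPM against 1.804 to 1.921. Among medium libraries, Eif2ak3 had 36.48 CPM in replicate 3 (39.19 to 39.42 in the others) and Cntln 36.33 CPM in replicate 2 (33.83 to 34.12). Apela stood at 0.03681 CPM in medium replicate 2, from 1 count, with 0 in the other medium libraries.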

How the results depend on the processing

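The 7 genes that passed the filter kept their direction under all 17 alternatives. These alternatives refit the libraries whose contrast chose the genes. Nothing is therefore read from the kept directions, or from the calls of the set given below. With edgeR or DESeq2 on counts the number of all genes called ranged from 4485 to 5556, and by leaving out 1 library from 4753 to 5089. A fit by limma on log2(TPM + 0.5), whose libraries are off scale for corticosterone replicates 1 and 2, called 1194 genes, 380 of them higher, and 3 of the 7 genes (Apln, Esm1 and Ism1). With a pseudocount of 0.1 it called 1188 genes and 3 of the 7, and the median of all genes shifted by -0.18. There the log2 fold changes were 0.12 for Cd93, 0.28 for Pgf, -0.39 for Clec14a and -0.50 for Trp53i11; the cause was not tested. With a term for corticosterone replicates 1 and 2 the call of Trp53i11 ended, leaving 6. Without those 2 libraries 1 isthmin partner was called lower, against 2, and the log2 fold change of Ism1 was -2.18. Pdgfb, at -0.058 and not called, turned to 0.0045 with that term and to 0.0052 without those libraries. Libraries with the same replicate number did not deviate together (correlations of -0.053 to 0.030, and 1 of 8 libraries closest to its own number). A replicate block called 4913 genes and the same number, 7, of the set, and ended the call of Mmrn2. Over the 15 alternatives on counts, the pericyte and smooth muscle markers Pdgfrb and Acta2 were called lower in 4 and 13, Abcc9 lower in 1, and Myh11, which the filter had left out with all 8 libraries, higher in 7. The leading transcript's difference in Trp53i11 ranged from 2.71 to 10.7 percentage points when 1 library was left out. Counts of 11 and 19 limit Aplnr, and 13 to 30 counts a library limit Ism1 with corticosterone.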
